A study of Homo sapiens with 4 samples.

Results

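U11, U12, U4atac and U6atac are the small nuclear RNAs (snRNAs) that belong to the minor spliceosome alone. Their genes RNU11, RNU12, RNU4ATAC and RNU6ATAC were chosen by symbol, and each matched 1 row, giving 4 of the 18276 genes listed. Their levels were compared between RNA pulled down with SF3B6 (IP) and total input RNA of MDA-MB-231 cells, an established human line of triple-negative breast cancer. There were 2 IP and 2 input libraries, described by the submitters as biological replicates. All cells were irradiated once with ultraviolet light at 400 mJ/cm2, and the lysate was digested with micrococcal nuclease. The IP libraries came from an immunoprecipitation with 5 µg of antibody to SF3B6. The cell line entries of the libraries differ in their last digit, while every title gives MDA-MB-231. The inputs were the only reference used here, and RNA that came down unspecifically was not separated from RNA bound to SF3B6.

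The minor spliceosome removes a rare class of introns, called U12-type, from a small set of genes. U11 pairs with the start of such an intron and U12 with its branch point, and they arrive together as one particle, the U11/U12 di-snRNP. U4atac and U6atac arrive paired with each other in a complex with U5, after which U4atac leaves and U6atac takes the place of U11. SF3B6 is a small protein of SF3b, a complex that sits at the branch point and is part of both the U2 particle of the major spliceosome and the U11/U12 di-snRNP.

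The libraries were shallow and unequal. The gene counts of SF3B6 IP 1 and 2 summed to 55492 and 30431 and those of input 1 and 2 to 317190 and 519836, and the upper limit that a 0 leaves (3 counts) lay between 6.12 and 131 CPM (counts scaled to the tested genes after TMM). Markers of mesenchymal-like breast cancer lines summed to 1536 and 2762 counts in the inputs, with 7 of 7 genes listed. Luminal breast markers summed to 147 and 296, led by ERBB2, with 5 of 8 listed. Of 3 blood cell markers 1 was listed, CD74 with 65 and 115, while PTPRC and HBB were not listed. Gene counts made up 7.32% and 6.07% of the totals behind the deposited FPKM values in the IP libraries and 15.0% and 20.4% in the inputs. These totals were computed from the counts and FPKM of RNU12 and its 150 bases. Values are therefore given on both scales: CPM after TMM, which centres on the tested genes, and FPKM, which divides by gene length and by those larger totals.

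U12 was the minor snRNA with the largest rise in IP. RNU12 (ENSG00000276027.1; chromosome 22, 42615244 to 42615393, GRCh38; annotated as snRNA) had 44 and 17 counts in the IP libraries, against 15 and 18 in inputs that were several times deeper. That was 969 and 741 CPM in IP and 52.8 and 36.7 CPM in input, so both IP libraries lay far above both inputs. In CPM both IP libraries were above both inputs for 20.9% of tested genes. Mean levels were 855 ± 161 and 44.7 ± 11.4 CPM (SD, n = 2 libraries each). The fitted difference of 20.6-fold (4.36 ± 0.33 SE on the log2 scale; adjusted p = 4.48e-12 with edgeR) was rank 8 by fold among 3668 tested genes. RNU12 passed the filter on low counts through the IP libraries, so this rank is among genes that the filter partly chose. Of all tested genes, 2.7% were called higher and 1.36% lower. Thus 66.4% of calls were higher, against 49.3% with upper quartile scaling and 40.0% with library totals. On the FPKM scale U12 stood at 387 and 226 in IP and at 47.1 in each input. Groups that were apart in this direction on the FPKM scale were found for 1.36% of tested genes, U12 among them. With the FPKM totals in the count test U12 was at 2.71 ± 0.59 (adjusted p = 0.000200), where 0.463% of genes were called higher.

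U11, the partner of U12 in the di-snRNP, rose less and less firmly. RNU11 (ENSG00000270103.3; chromosome 1, 28648600 to 28648734; 135 bases), annotated as lncRNA in the deposited table and as snRNA in RefSeq, had 15 and 4 IP counts and 30 and 22 input counts. In CPM it was at 330.3 and 174 in IP against 105.5 and 44.8 in input, so the groups were apart, though SF3B6 IP 1 was well above SF3B6 IP 2. Groups apart in this direction in CPM were found for 20.9% of tested genes. The 4.11-fold difference passed the test (2.04 ± 0.52 SE on the log2 scale; edgeR, adjusted p = 0.0170) at rank 58. In FPKM the groups overlapped: 151 and 60.9 in IP against 108 and 65.9 in input. The call was lost with the FPKM totals (0.37, adjusted p = 0.577) and without SF3B6 IP 1, which held 15 of its 19 IP counts (1.15, 0.639), without input 1 (2.57, 0.546) and without input 2 (1.36, 0.648). DESeq2, which called 1.92% of the genes it could test higher and 0.165% lower, did not call it either (1.85, adjusted p = 0.231).

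U4atac, the RNA that holds U6atac until activation, did not pass the test. RNU4ATAC (ENSG00000264229.1; chromosome 2, 121530880 to 121531009; 130 bases) was counted 15 and 6 times in IP and 59 and 85 times in input, the most input counts of the minor snRNAs. In CPM it was at 330.3 and 261 in IP and at 208 and 173 in input. Both IP libraries were above both inputs, as they were for 20.9% of tested genes. The log2 fold change was 0.72 ± 0.36 (SE; edgeR adjusted p = 0.332). In FPKM the order turned: 156 and 94.3 in IP lay below 219 and 263 in input. On that scale 88.8% of tested genes had both IP libraries below both inputs. With the FPKM totals its log2 fold change was -0.90 (adjusted p = 0.160).

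U6atac, which forms part of the catalytic centre, had the fewest IP counts. RNU6ATAC (ENSG00000221676.1; chromosome 9, 134164439 to 134164564; 126 bases) was counted 5 times in SF3B6 IP 1 and once in SF3B6 IP 2, against 19 and 28 times in the inputs. The exact 95% interval of the single count in SF3B6 IP 2 runs from 0.0253 to 5.57 counts, for counting error only. In CPM it was at 110.1 and 43.6 in IP and 66.8 and 57.1 in input, so the IP libraries lay on either side of the inputs. The log2 fold change of 0.53 ± 0.68 (SE; edgeR adjusted p = 0.798) could not be told from 0 at this depth. In FPKM it was at 52.4 and 15.8 in IP, below 71.1 and 87.3 in input. Both IP libraries were below both inputs on that scale for 88.8% of tested genes. Its log2 fold change with the FPKM totals was -1.08 (edgeR adjusted p = 0.168). Without SF3B6 IP 1 it was at -0.69 with TMM too (adjusted p = 0.941).

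**Figure D1:**
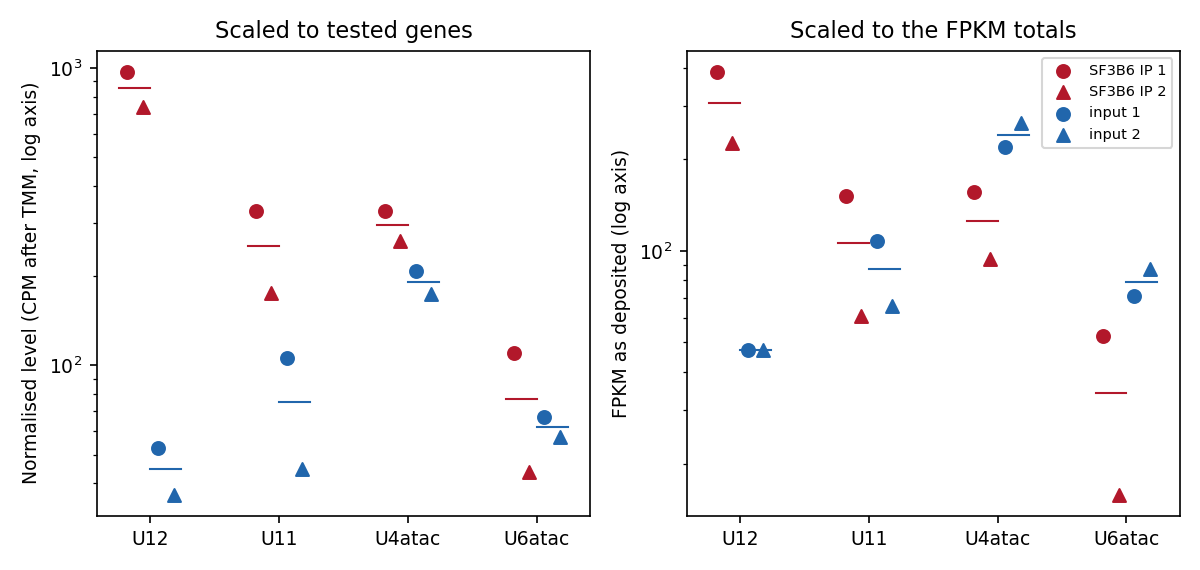
Level of each minor snRNA in each library, as CPM after TMM (left) and as deposited FPKM (right), both on log axes; red marks are IP and blue marks input libraries, circles are replicate 1 and triangles replicate 2, and lines are group means over 2 libraries. U12 is above both inputs on both scales, while U4atac is above them in CPM and below them in FPKM.

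The median of all tested genes moved with the scale, from -0.06 with TMM to -1.65 with the FPKM totals. The 5 scalings use the same counts and shift all genes by nearly the same amount, so they leave the order of genes almost unchanged. That order was U12 highest, then U11, U4atac and U6atac, the last pair closer to each other than their SE. All of them had estimates above the median of tested genes. Seeing this under each scaling adds no support beyond the fit with TMM. The sign of U4atac and U6atac flipped with the FPKM totals, where U12 and U11 stayed positive. When limma was applied to log2(FPKM + 1), U4atac (-0.98, adjusted p = 0.0382) and U6atac (-1.41, 0.0108) were called lower, as were 69.5% of tested genes, while 0.682% were called higher.

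**Figure D2:**
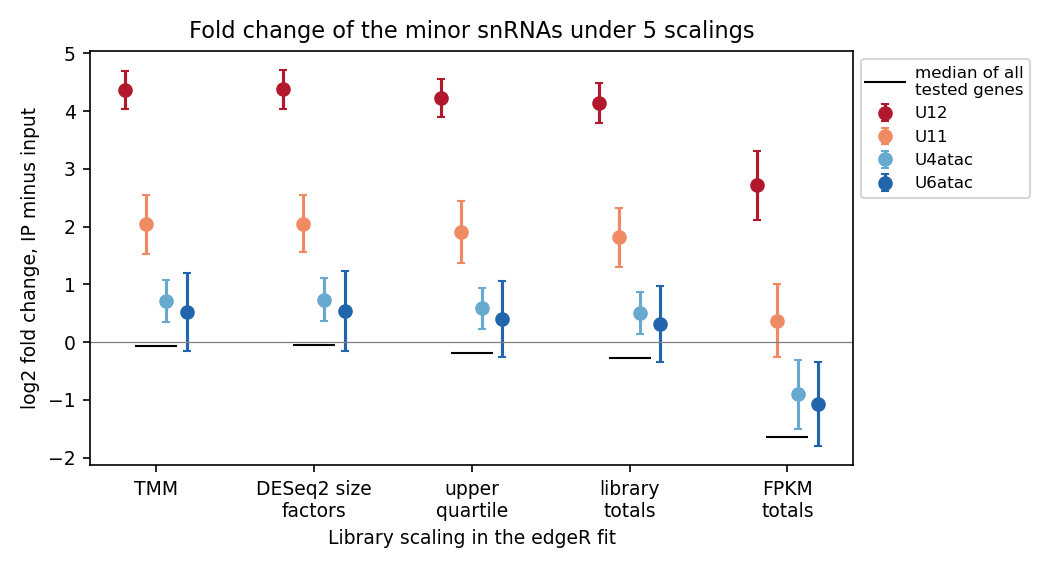
Fitted log2 fold change (IP minus input, edgeR) of each minor snRNA under 5 library scalings, with bars of 1 SE, and black dashes for the median of all tested genes. U12 stays above 2.7 throughout; U4atac and U6atac are positive with TMM, DESeq2 size factors, upper quartile and library totals and negative with the FPKM totals.

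The make-up of the minor snRNA pool changed between input and IP, and this comparison needs no scale between libraries. U12 made up 12.2% of the summed counts of the 4 genes in input 1 (15 of 123; Wilson 95% interval 7.53 to 19.1%) and 11.8% in input 2 (18 of 153; 7.57 to 17.8%). In SF3B6 IP 1 it made up 55.7% (44 of 79; 44.7 to 66.1%), and in SF3B6 IP 2 60.7% (17 of 28; 42.4 to 76.4%). U12 thus had the largest share of the pool in both IP libraries. In both inputs U12 had the smallest, with an interval that overlapped those of U11 and U6atac. Its mean share was 58.2 ± 3.55% in IP against 11.98 ± 0.304% in input (SD, n = 2 each), a difference of 46.2 percentage points that was far larger than the spread between replicates.

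The shares of U4atac and U6atac were correspondingly smaller in IP, and that of U11 overlapped. U4atac held 48.0% and 55.6% of the pool in the inputs but 19.0% and 21.4% in IP. U6atac held 15.4% and 18.3% in the inputs and 6.33% and 3.57% in IP. U11 held 24.4% and 14.4% in the inputs and 19.0% and 14.3% in IP. An exact two-sided permutation test over libraries gave p = 0.333 for the shares of U12, U4atac and U6atac, the smallest it can give with 2 against 2 libraries, and 0.667 for that of U11 (adjusted over the 4 shares, 0.444 and 0.667). Shares within a library sum to the whole, so these are not separate observations. Taken per length from FPKM, the mean U12 share was 54.4 ± 3.59% in IP and 10.4 ± 0.293% in input.

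**Figure D3:**
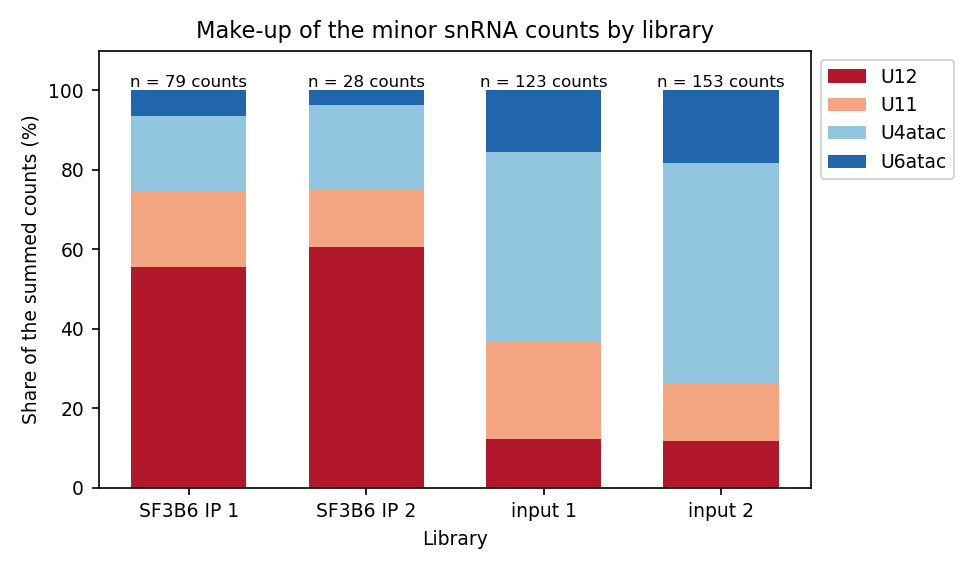
Share of each minor snRNA in the summed counts of the 4 genes, 1 bar per library, with the number of counts behind each bar. U12 takes 55.7% and 60.7% of the IP bars and 12.2% and 11.8% of the input bars, and U4atac is the largest share of both input bars.

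Ratios within a library set U12 apart from each of the other minor snRNAs, U11 of its own particle included. Within the di-snRNP, U12 stood at 0.500 and 0.818 counts per U11 count in the inputs and at 2.93 and 4.25 in IP. The ratio was 5.52-fold higher in IP (log2 difference 2.46; exact 95% interval of the pooled odds ratio 2.45 to 10.6, counting error only). U12 to U4atac rose from 0.254 and 0.212 in input to 2.93 and 2.83 in IP, a 12.4-fold difference (pooled odds ratio interval 6.51 to 24.9). U12 to U6atac went from 0.789 and 0.643 to 8.80 and 17.0, with a single U6atac count in the second IP library. In all 3 ratios both IP libraries lay above both inputs.

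The ratio of U4atac to U6atac, which pair with each other, overlapped between groups. It was 3.11 and 3.04 in the inputs and 3.0 and 6.0 in IP, with a pooled odds ratio of 1.14 and an interval from 0.413 to 3.67. That interval is wide enough to hold a difference of more than 2-fold in either direction. U11 to U4atac was 0.508 and 0.259 in the inputs and 1.00 and 0.667 in IP, so the groups were apart by 2.25-fold on average (log2 difference 1.17, or 0.68 without input 2; interval of the pooled odds ratio 1.17 to 5.32). U11 to U6atac was 1.58 and 0.786 in the inputs and 3.0 and 4.0 in IP, with an interval from 0.984 to 9.44 that holds 1. Over the 6 pairs compared, the exact permutation p was 0.333 for 5 pairs and 1 for U4atac to U6atac (adjusted over 6, 0.4 and 1), and 2 against 2 libraries cannot go below 0.333. Taken from the fit across all genes, the log2 fold change of U12 exceeded that of U11 by 2.33 ± 0.61, that of U4atac by 3.65 ± 0.49 and that of U6atac by 3.84 ± 0.76 (SE, treating the estimates as independent).

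Per length, on the FPKM scale, the order of levels differed between groups. In input U4atac had the highest value at 241 ± 31.0 FPKM, followed by U11 at 87.0 ± 29.7, U6atac at 79.2 ± 11.4 and U12 at 47.1 ± 0.0141 (SD, n = 2). How evenly these RNAs were recovered was not tested, so this is an order of reads per length and not of molecules. U11 and U6atac changed places between the inputs and did not differ beyond their spread. U12 was lowest in both, on 15 and 18 counts with exact 95% intervals of 8.40 to 24.7 and 10.7 to 28.4. These overlap the intervals of U6atac in input 1 (11.4 to 29.7) and of U11 in input 2 (13.8 to 33.3). The U12 SD of 0.0141 is thus smaller than its counting error. In IP the order was U12 at 307 ± 114, U4atac at 125 ± 43.6, U11 at 106.0 ± 63.8 and U6atac at 34.1 ± 25.8 FPKM. That order held within each IP library, although U4atac and U11 overlapped between libraries. Among all 18276 genes listed, U12 ranked 27 and 29 by FPKM in IP and 99 and 121 in input, while U4atac ranked 36 and 41 in IP and 35 and 33 in input.

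Each minor snRNA except U6atac could be set against its counterpart in the major spliceosome. U12 was compared with U2, the branch point RNA of the major class of introns, whose 13 rows were summed. WDR74, host of a U2 gene, was not in this sum, at a mean of 4628 CPM and a log2 fold change of 3.02. Whether its counts come from U2 was not tested. The U12 to U2 ratio was 0.249 and 0.493 in IP and 0.130 and 0.301 in input, so the groups overlapped. One U2 row had 36 counts in input 1 and 0 in input 2 (3 and 1 in IP), and near-identical U2 copies can share reads, so single rows are uncertain. For the summed rows the log2 difference was 0.83 (pooled odds ratio 1.56, interval 0.957 to 2.58). That log2 difference moved with single libraries: it was 0.22 without input 1, 1.43 without input 2, 1.32 without SF3B6 IP 1 and 0.34 without SF3B6 IP 2. U11 was compared with U1, its counterpart at the intron start, over 14 rows. The U11 to U1 ratio was 0.0854 and 0.0443 in IP and 0.0204 and 0.0140 in input, 3.65-fold higher in IP with the groups apart (interval of the pooled odds ratio 2.21 to 7.03). The U4atac to U4 ratio was 0.111 and 0.0610 in IP and 0.134 and 0.154 in input, lower in both IP libraries (log2 difference -0.80, or -1.24 without SF3B6 IP 1 and -0.37 without SF3B6 IP 2; pooled odds ratio 0.594, interval 0.349 to 0.966). Over these 3 ratios the exact permutation p was 0.667 for U12 to U2 and 0.333 for the others (adjusted 0.667 and 0.5). The symbols used for U6 matched 0 rows, so U6atac has no such ratio.

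Genes with a pattern like that of U12 included U2 copies. Likeness was the Euclidean distance between log2 CPM profiles over 4 libraries, each centred on its mean, among 3507 other genes with a mean of at least 50 CPM. Of the 5 nearest to RNU12, 3 were rows named U2, at distances of 0.110, 0.508 and 0.875. The nearest held 15 and 6 IP counts beside 4 in each input, and the other U2 rows had 2 and 4 input counts. Near-identical U2 copies can share reads, so these rows are not separate observations. They passed the filter on low counts through the IP libraries. A U2 row with so few input counts and no IP counts could not appear among the tested genes. The neighbours of RNU12 other than U2 were MIR3648-2 (0.327), a microRNA gene with 80 and 38 IP counts and 40 and 39 input counts, and an unnamed microRNA gene (ENSG00000264063, 0.900). Nearest to RNU11 were the 5S rRNA gene RNA5S6 (0.237), HMGB2, LIME1, NBPF20 and MUC1 (0.475), which are protein-coding. Nearest to RNU4ATAC were MXD4, EVPL, CSRP1, RABL6 and ZNF787 (0.0434 to 0.0765), and to RNU6ATAC, CSNK1D, PILRB, SSR3, NXN and SBF2 (0.0783 to 0.111), all protein-coding. With 4 points in 2 groups, such distances mainly order genes by their difference between groups and libraries.

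**Figure D4:**
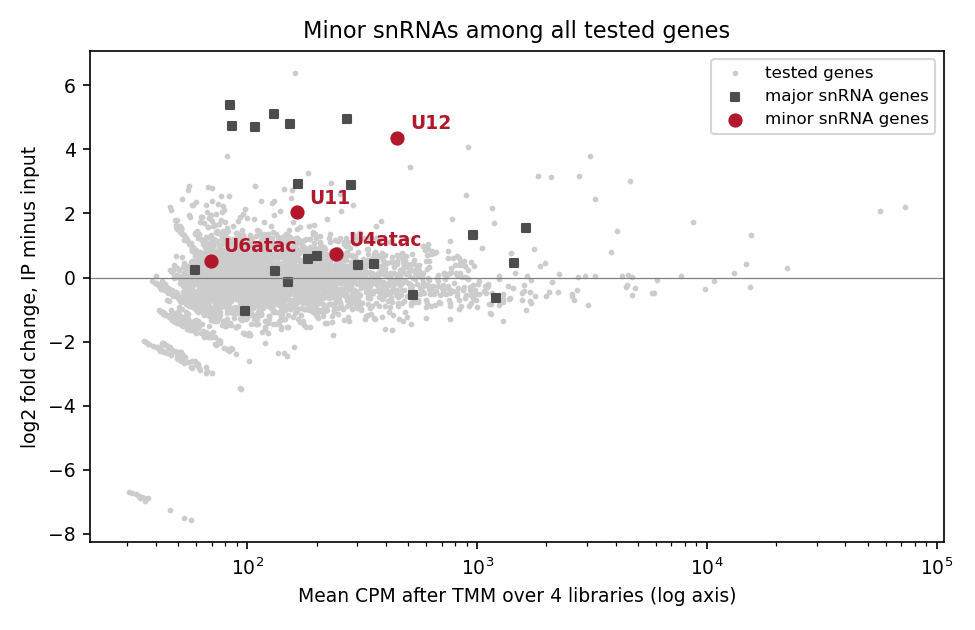
Fitted log2 fold change (IP minus input, edgeR with TMM) against mean CPM on a log axis for 3668 tested genes in grey, with major snRNA genes as dark squares and minor snRNA genes in red. U12 at 4.36 stands with most of the tested U2 rows above 4. Those U2 rows passed the filter on low counts through the IP libraries. U11 at 2.04 lies above the bulk of genes, and U4atac and U6atac (0.72 and 0.53, but negative with the FPKM totals) lie within it.

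Those genes beside the minor snRNA genes that were listed had few counts. The sources used here do not give how the counting treated strand and overlap, so reads of a neighbour or host could be mixed with those of an snRNA. POLDIP3, which ends 361 bases from RNU12, had 0 and 1 IP counts against 9 and 35 input counts, and CYB5R3, at 2447 bases, had 7 and 3 against 50 and 106. TAF12, at 331 bases from RNU11, was at 0 in each IP library and at 0 and 2 in the inputs. CLASP1, which encodes a microtubule-binding protein and spans RNU4ATAC over 311687 bases, had 4 and 0 IP counts and 13 and 32 input counts, fewer than the 130 bases of RNU4ATAC in all libraries. WDR5, at 4471 bases from RNU6ATAC, had 4 and 2 against 23 and 49. CYB5R3, CLASP1 and WDR5 were tested and did not pass (edgeR adjusted p = 0.700, 0.996 and 0.975). A further 4 RefSeq genes at these loci matched no row by symbol, so their counts are unknown. Of these, TAF12-DT spans RNU11, CLASP1-AS1 spans RNU4ATAC and LOC124902297 spans RNU6ATAC, while LOC124905127 lies beside RNU12.

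Messengers of the proteins that work with the minor snRNAs were mostly too rare to test. The 8 genes of U11/U12 di-snRNP proteins summed to 2 and 4 IP counts and 29 and 42 input counts, and 0 of them passed the filter on low counts. PDCD7, a protein of that particle, had the most, with 1 and 3 in IP and 12 and 14 in input. Of 6 listed genes of other minor spliceosome factors, 1 was tested: CENATAC (0.71, edgeR adjusted p = 0.678), a protein of the U4atac/U6atac complex, with 4 and 2 against 18 and 23 counts. Of the 7 SF3b genes, 2 were tested, SF3B2 (0.35, adjusted p = 0.818) and SF3B3 (0.18, 0.931). SF3B6 itself was at 0 in each IP library and at 0 and 1 in the inputs.

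Over all 7 protein lists, which add SF3a, the Sm ring, the tri-snRNP proteins and the factors of snRNA transcription and assembly, 20 of 68 listed genes were tested. Of these, 0 were called by edgeR (5 at an unadjusted p under 0.05), with a median log2 fold change of 0.22 beside -0.06 for all tested genes. DESeq2 gave an adjusted p for 10 of the 20 and called 0 of those. The integrator gene INTS11, whose product cuts snRNA precursors, was nearest the threshold (1.09 ± 0.33 SE, edgeR adjusted p = 0.0532). Among the tri-snRNP proteins, PRPF8, the protein at the centre of both spliceosomes, was at -0.84 (adjusted p = 0.225) and SNRNP200, a helicase, at -0.59 (0.432). From the SF3a list SF3A2 was at 0.69 (adjusted p = 0.560), and from the Sm ring SNRPB was at -0.97 (0.457) and SNRPD2 at -0.22 (0.944). With the FPKM totals 8 of the 20 were called, all lower, where 57.2% of tested genes were called lower.

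Other small RNAs give the setting of the U12 value. Of 33 rows of major spliceosomal snRNA genes, 21 were tested and 10 were higher, where 2.7% of all tested genes were called higher. The 10 were 8 of U2, with RNU2-1 among them, and the U4 genes RNU4-1 and RNU4-2. Several of the U2 rows had only 1 to 4 counts in each input and passed the filter on low counts through the IP libraries. The number of U2 calls is therefore partly set by the filter. RNU2-1 had 41 counts in SF3B6 IP 1 and 1 in SF3B6 IP 2, against 41 and 22 in the inputs. Its log2 fold change of 2.88 turned to -1.11 without SF3B6 IP 1 (edgeR adjusted p = 0.774), and DESeq2 did not call it (adjusted p = 0.481). Calls in the list fell to 3 without SF3B6 IP 1 and to 4 without input 1 or without input 2, and with the FPKM totals 6 of 11 called genes were higher. The median over the 21 was 0.68, and the range ran from -1.05 to 5.40, so the U12 value of 4.36 lay inside the range of the U2 rows. RNU4-1 and RNU4-2, at 1.31 and 1.56 with TMM and -0.27 and -0.02 with the FPKM totals, were above U4atac on each scale. Of 6 tested genes among other abundant small RNAs, 3 were higher, RN7SL1, RN7SL3 and SNORD3A (highest log2 fold change 2.22), and RMRP, RPPH1 and TERC did not pass. All 3 values were below that of U12, and RN7SL1 was the only one above U11. These calls were lost with the FPKM totals, where RN7SL1 was at 0.58 (adjusted p = 0.0770), RN7SL3 at 0.12 (0.745) and SNORD3A at -0.27 (0.458), and 3 genes of the list were called, 0 of them higher. Without input 2, 0 genes of the list were called (edgeR), with RN7SL1 at 1.97 (adjusted p = 0.230), RN7SL3 at 1.54 (0.0592) and SNORD3A at 1.13 (0.388).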

How the data were processed

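Per the submitters' processing notes, HISAT2, HOMER and hg38 were used, with no role or version given. The authors deposited raw read counts per gene and FPKM values, 1 column per library. Genes were matched to the RefSeq table of GRCh38.p14 by symbol. The main test was the quasi-likelihood F-test of edgeR 4.0.16 in R 4.3.3, run across the whole count table, with TMM, the default filter on low counts (3668 genes kept), group as the only term and Benjamini-Hochberg adjustment at 0.05, and the code was tested on simulated data. CPM refers to the tested genes after TMM. FPKM totals were compared between libraries through genes with at least 20 counts, where length cancels. DESeq2 1.42.0 and limma 3.58.1 were alternatives. Shares and ratios used counts within a library, with 0.5 added to both counts for the ratios to major snRNAs. Intervals cover counting error only, as they come from the counts of 1 library or from counts pooled over a group. There are no molecular identifiers, so repeated reads of 1 molecule could not be told apart and the intervals may be too narrow. The named genes are those of the lists, the neighbours within 5000 bases and the 5 nearest profiles. Members and lists were chosen with earlier results of these data known.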

Additional observations from a re-analysis of the deposited data

How the results depend on the processing

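U12 was higher and passed in 15 of 15 alternative settings (2.42 to 4.61). U11 was higher in 15 of 15 but passed in only 6. It did not pass with the FPKM totals (0.37), with no filter (1.56) or with DESeq2 (1.85). With limma on log2(FPKM + 1), (FPKM + 0.1) and (FPKM + 10) it did not pass either (0.18, 0.19 and 0.18). Nor did it pass without SF3B6 IP 1, without input 1 or without input 2. Leaving out 1 library gave U11 from 1.15 to 2.57 and U6atac from -0.69 to 0.76. In the FPKM totals and these 3 limma settings U4atac was at -0.90, -0.98, -0.98 and -0.93, and U6atac at -1.08, -1.41, -1.45 and -1.15. RNU4-1 was at -0.27, -0.26, -0.26 and -0.26, RNU4-2 at -0.022 in all 4, and SNORD3A at -0.27 in all 4. RNU2-1 was at -0.27, -0.31 and -0.017 with limma, and from -1.11 to 3.65 without 1 library. The cause of these changes was not tested, beyond the shift of the median of tested genes with the scale.

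The number of genes higher and lower in IP was 99 and 50, against 60 and 90 with library totals, 67 and 69 with upper quartile scaling, 17 and 2098 with the FPKM totals, 50 and 163 with no filter, 35 and 3 with DESeq2, and 25 and 2548, 25 and 1865, and 19 and 2508 with limma at the same 3 pseudocounts. The part of the calls that was higher was 66.4% by TMM, 49.3% by upper quartile, 40.0% by library totals and 0.804% by FPKM totals. Without 1 library there were 26 to 94 higher and 5 to 70 lower genes. Calls among major snRNA genes went from 10 to 5 with a minimum of 10 counts in 2 libraries, 5 with DESeq2, 17 and 16 with limma at the first 2 pseudocounts (7 higher in each, the rest lower), and 3 to 10 without 1 library; with the FPKM totals there were 11, 6 of them higher. Other small RNAs had 3 calls, all higher, against 0 to 3 without 1 library and 3, with 0 higher, with the FPKM totals. Calls among protein genes went from 0 to 1 with DESeq2 size factors, 8 with the FPKM totals, 1 with the minimum of 10 counts, 12, 9 and 13 with limma, and 0 to 1 without 1 library. Ratios between pairs, whose alternatives were chosen after seeing the data, kept their direction without each library, except U4atac to U6atac (-0.033 to 0.97). The share of U11 ran from -7.75 to 2.26 percentage points, and the other shares and ratios kept their direction, with U12 to U2 from 0.22 to 1.43 and U4atac to U4 from -1.24 to -0.37.

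With the replicate number as a block, U12 (4.24, edgeR adjusted p = 1.63e-23) and U11 (1.72, 0.0478) still passed. The SE of U12 was 0.40 with the block and 0.33 without it, so its smaller p is not a firmer result. These p-values draw on spread shared across genes and do not measure the spread of 1 gene between replicates. Lower calls fell to 22, and calls among other small RNAs to 1. The number was not taken as a pairing, since the labels do not say what it marks. Same-numbered libraries did not deviate together (r = 0.00 over 3668 genes), but at this depth counting error could hide a pairing. The sums with pseudogene copies of the members were not run, as 0 such rows were listed. U6atac has no DESeq2 adjusted p and was not tested without input 1 or input 2. With 6 IP counts of U6atac and 19 of U11, depth limits both.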
